A study of Caenorhabditis elegans with 2 samples.

Results

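The genes described here encode parts of the machinery that brings proteins into mitochondria: *timm-23*, *timm-17B.1*, *tomm-7*, *tomm-20*, *tomm-22* and *tomm-40*. All 6 names are present in the WBcel235 annotation, which holds 19973 protein-coding genes on the 6 nuclear chromosomes, and RefSeq describes the product of each as an import receptor or translocase subunit. The set was chosen by name with earlier results of these data known, and *timm-23* was chosen by the signal value of the peak at its promoter, one of the strongest of the series. The values of that peak are therefore a description, and no test was made over the members.

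Most mitochondrial proteins are made in the cytosol and imported afterwards. The TOM complex of the outer membrane recognises them and passes them through the channel formed by TOM40, with TOM20 and TOM22 as receptors and TOM7 as a small subunit that affects the stability of the complex. The TIM23 complex of the inner membrane, with TIM23 and TIM17 at its core, then takes in proteins that carry a cleavable presequence, and a motor built around mitochondrial HSP70 pulls them into the matrix. These roles were worked out largely in yeast.

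The protein mapped was T20F7.1. It was immunoprecipitated from whole *C. elegans* L4 larvae through its GFP tag, and the DNA recovered with it was sequenced (ChIP-seq). There was 1 group with 2 biological replicates of strain OP754. In both, the animals were of mixed sex, aged 48 hours and grown from larvae starved after bleaching, and they carried the transgene wgIs754, which encodes T20F7.1 joined to TY1, EGFP and 3xFLAG at its C-terminus and includes unc-119(+). The strain also carries the unc-119 allele tm4063, so every sample shares the transgene, the mutant allele and its rescue. The signal therefore comes from a tagged transgene product in all tissues together, and what drives its expression is not given in the sources used here. No input or untagged sample was analysed here.

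Each replicate has a deposited list of 30000 candidate regions. The authors retained 2586 peaks with the irreproducible discovery rate (IDR) procedure, which rests on how ranks hold up between replicates. These 2586 are the strongest regions of the pooled list, so a place among them does not show that a given peak agreed between replicates. The signal value is the authors' measure of peak strength. Its scale is not stated, so values are compared within a list, and read depth is unknown. The weakest listed region had a signal value of 17.6 in replicate 1 and 19.1 in replicate 2, and the IDR peaks had a median of 144 in the pooled data. At 2442 IDR peaks with a candidate summit within 100 bp in both replicates, replicate 2 over replicate 1 gave log2 ratios with an SD of 0.47 around a median of 0.03 (quartiles -0.21 and 0.29). The spread depends on strength. The SD was 0.13 over the matched peaks among the 259 strongest, which include *timm-23*, *tomm-40* and *tomm-20*. It was 0.53 and 0.48 in the groups by rank that hold *tomm-7* and *timm-17B.1*, out of 10 near-equal groups.

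Peaks lay at 5 of the 6 genes. An IDR summit was found between 1000 bp upstream of the gene start and the gene end for *timm-23*, *timm-17B.1*, *tomm-7*, *tomm-20* and *tomm-40*, where the share over all protein-coding genes was 11.4%. In the promoter window, from 500 bp upstream to 100 bp downstream of the start, 4 of the 6 had a summit against 7.31% of all genes. *tomm-7* is the difference between these counts. *tomm-22* had no candidate region in the longer window in either replicate, where 51.4% of all protein-coding genes had one in replicate 1 and 51.4% in replicate 2. The choice of members used these data, so nothing about import genes as a class is read from the counts.

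Sequence around the summits was read from the RefSeq copy of WBcel235, in windows of 101 bp centred on each IDR summit. The windows of *tomm-40* and of 2 other import genes, the receptor gene *tomm-70* and the TIM50 homolog *scpl-4*, are shown because each holds GAGNNTCGT, which was picked from these windows after they had been read and is marked in capitals. Each is printed 5′ to 3′ on the strand that reads this word, at chrII:8973801-8973901, plus strand; chrIII:8754849-8754949, plus strand; and chrV:10598817-10598917, minus strand.
tomm-40: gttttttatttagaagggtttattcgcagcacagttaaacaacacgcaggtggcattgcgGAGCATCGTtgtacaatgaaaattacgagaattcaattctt
tomm-70: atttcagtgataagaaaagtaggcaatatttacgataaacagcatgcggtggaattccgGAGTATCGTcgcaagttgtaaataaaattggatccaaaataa
scpl-4: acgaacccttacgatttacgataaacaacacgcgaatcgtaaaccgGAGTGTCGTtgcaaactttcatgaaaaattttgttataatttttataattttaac

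A different word, GCTNNCGCA, picked in the same way, is in capitals in the windows of *tomm-20* and *timm-17B.1*, and of *ddp-1* and *tin-9.1*, which encode small chaperones of the intermembrane space, at chrV:12343707-12343807, plus strand; chrIV:4745589-4745689, minus strand; chrIII:1859691-1859791, plus strand; and chrIV:7044880-7044980, plus strand. The window of *tomm-7*, at chrIII:7858576-7858676, plus strand, is shown beside them because it holds neither word at this width of 101 bp.
tomm-20: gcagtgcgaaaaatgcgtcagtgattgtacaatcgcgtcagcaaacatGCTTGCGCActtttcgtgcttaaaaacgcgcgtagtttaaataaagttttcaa
timm-17B.1: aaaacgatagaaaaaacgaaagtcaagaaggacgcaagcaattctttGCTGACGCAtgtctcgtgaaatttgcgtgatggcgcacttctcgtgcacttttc
ddp-1: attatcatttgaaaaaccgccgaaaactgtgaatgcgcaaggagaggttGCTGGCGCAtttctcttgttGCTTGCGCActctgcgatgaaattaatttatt
tin-9.1: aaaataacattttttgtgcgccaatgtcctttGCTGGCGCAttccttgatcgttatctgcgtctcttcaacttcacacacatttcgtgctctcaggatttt
tomm-7: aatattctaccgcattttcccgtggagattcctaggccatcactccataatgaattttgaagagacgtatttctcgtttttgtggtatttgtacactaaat

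**Figure D1:**
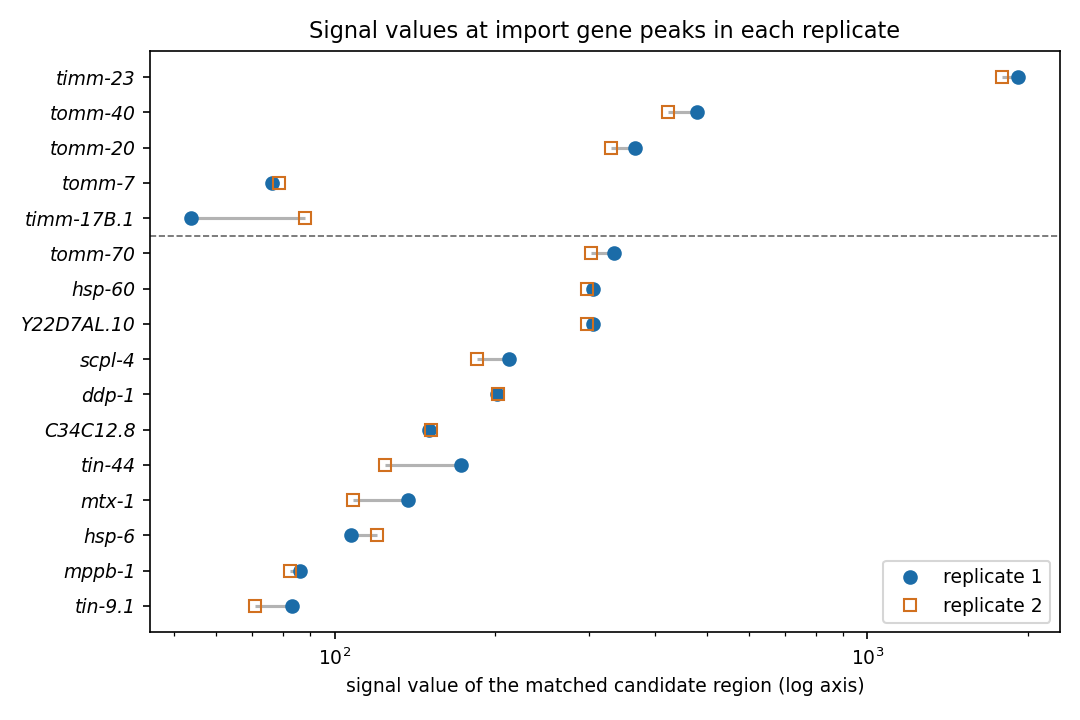
Signal value (log axis) of the candidate region matched to each IDR peak in replicate 1 (filled circles) and replicate 2 (open squares), 1 row per gene, with the genes of the set above the dashed line and other import genes below it. *timm-23* stands apart at 1922 and 1790, and the replicates lie farthest apart at *timm-17B.1*, at 53.8 and 88.1.

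In the inner membrane, *timm-23* encodes the channel subunit of the presequence translocase. The gene lies on chromosome I from 11578641 to 11579612 on the plus strand (ce11). Each list has 1 region with a summit in its longer window, which in the IDR list is a peak from 11578093 to 11578706. The signal value was 1922 in replicate 1 and 1790 in replicate 2, rank 3 of 30000 in each, so both replicates are near the top of their lists. In the pooled data it was 3695, also rank 3, which is 25.7 times the IDR median. The replicates differed by a log2 ratio of -0.10, less than the SD of 0.13 over the matched peaks among the 259 strongest. That group runs from 523 to 6064 in pooled signal value, and nearly all of it is weaker than *timm-23*. The summit was at 11578398, 243 bp upstream of the gene start, and the replicate summits lay within 5 bp of it. No other protein-coding gene has that summit in its promoter window. F15D3.6, the next gene upstream, is on the other strand and its start is 910 bp from the summit.

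The 3 IDR peaks most like that of *timm-23*, by distance between log2 signal values in the 2 replicates, were those nearest to *luc-7L3* (1908 and 1715), *dld-1* (1766 and 1650) and *F52C12.2* (1626 and 1594). They hold IDR ranks 4, 5 and 6. *luc-7L3* lay at a distance of 0.06 log2 units, which is less than the replicates of *timm-23* differed from each other. *dld-1* encodes dihydrolipoyl dehydrogenase, a mitochondrial enzyme.

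The partner of TIM23 in the inner membrane is encoded by *timm-17B.1*, and its peak was weak. Its signal value was 53.8 in replicate 1 and 88.1 in replicate 2, at ranks 2250 and 1028. The pooled value of 135 is below the IDR median, at rank 1414 of 2586. The log2 ratio of 0.71 is above the SD of 0.48 among peaks of like strength and is the largest difference between replicates among the members. The authors' −log10 q was 1.67 for the pooled peak, 0.83 in replicate 1 and 2.27 in replicate 2, so the strength of this site is the least certain of the 5. The summit lies 147 bp upstream of the start, in the stretch of 330 bp that separates *timm-17B.1* from the end of *tctn-1*. A second candidate 967 bp upstream in replicate 2 had a signal value of 21.8, close to the weakest listed, and no counterpart in the same window of replicate 1.

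In the outer membrane, *tomm-40* and *tomm-20* had strong promoter peaks. *tomm-40* encodes the channel, and its peak had a signal value of 479 in replicate 1 and 422 in replicate 2, at ranks 129 and 159. The pooled value of 897 was 6.24 times the IDR median. The summit lies 285 bp upstream of the gene start. A separate weak region sat 1446 bp inside the gene in the pooled list, near its end, with 33.6 and 40.6 in the replicates, and was not among the IDR peaks.

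*tomm-20* encodes a receptor for presequences. Its peak had a signal value of 367 in replicate 1 and 330 in replicate 2, at ranks 193 and 216, and 702 in the pooled data. The log2 ratios at *tomm-40* and *tomm-20* were -0.18 and -0.15, with replicate 1 the higher. Both are larger in size than the SD of 0.13 over the matched peaks among the 259 strongest. At 288 bp, the summit of *tomm-20* is almost as far upstream as that of *tomm-40*, and no other protein-coding gene has it in its promoter window. Both genes are transcribed from the minus strand.

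The peak counted for *tomm-7* lies 987 bp upstream of its start, just inside the limit of 1000 bp, and is nearer to other genes. Its signal value was 76.3 in replicate 1 and 78.7 in replicate 2, at ranks 1229 and 1240, and 158 in the pooled data. The replicates agree closely here, with a log2 ratio of 0.04. The summit is 169 bp upstream of *coq-5*, a gene of ubiquinone synthesis on the minus strand, and 353 bp upstream of *ufm-1*, which encodes a ubiquitin-like modifier on the plus strand. *ufm-1* ends 100 bp before *tomm-7* starts on the same strand. At the start of *tomm-7* itself, replicate 1 had a candidate of 29.4 with its summit 12 bp downstream and replicate 2 had none within the window.

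*tomm-22* encodes the other receptor of the set. It spans 2102 bp on chromosome II, from 468374 to 470475 on the minus strand. It had 0 regions in all 4 lists, although candidates extend down to signal values of 17.6 and 19.1, and the nearest IDR summit was 59413 bp from its start. Any signal there is below the weakest listed regions, which does not show that it is absent. The order of the levels was thus *timm-23*, *tomm-40*, *tomm-20*, then *tomm-7* and *timm-17B.1*. In replicate 1 *tomm-7* was above *timm-17B.1* and in replicate 2 below it, so these neighbours do not differ beyond the replicates. The values of *tomm-40* (422 to 479) did not overlap those of *tomm-20* (330 to 367), with 2 replicates each.

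**Figure D2:**
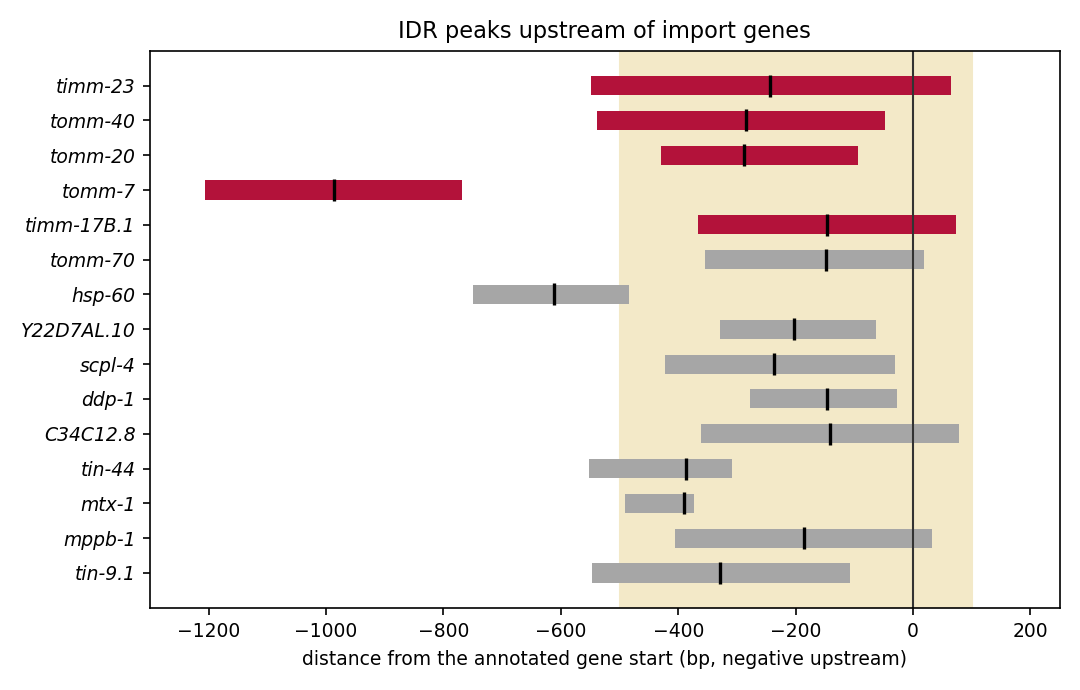
IDR peaks drawn as bars relative to the annotated gene start at 0 (bp, negative upstream, along the direction of transcription), with the summit as a black tick, for the set (red) and other import genes (grey). The shaded band is the promoter window from 500 bp upstream to 100 bp downstream, which holds the summits of every gene drawn except *tomm-7* at 987 bp and *hsp-60* at 611 bp. *hsp-6*, whose summit lies inside the gene, is not drawn.

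The 4 promoter summits of the set lay 147 to 288 bp upstream, with a median of 264 bp. Over all 1487 pairs of a gene and an IDR summit in its promoter window the median was 191 bp, with quartiles of 102 and 304 bp. Annotated 5′ leaders of the 6 genes are 0 to 19 bp long, so the annotated start is at or close to the start codon, and the distances do not refer to the site where RNA polymerase begins.

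**Figure D3:**
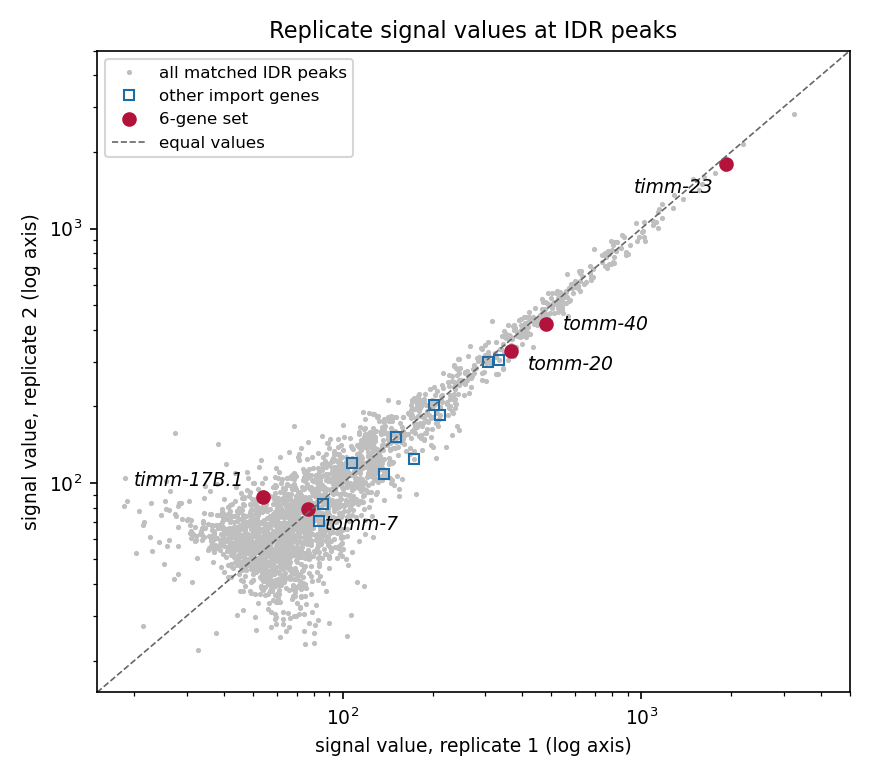
Signal value in replicate 1 (x) against replicate 2 (y), both on log axes, for the 2442 IDR peaks matched in both replicates (grey), the set (red) and other import genes (blue squares), with a dashed line where values are equal. *timm-23*, *tomm-40* and *tomm-20* lie on the narrow upper part of the cloud, whereas *tomm-7* and *timm-17B.1* lie in the broad lower part, where replicates scatter more.

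The import pathway has further genes, and 24 of them were looked up from a list of names and name prefixes. Of these, 11 had an IDR summit in the longer window and 9 in the promoter window, beside the shares of 11.4% and 7.31% over all genes. Their 10 distinct peaks had pooled signal values from 151 to 648. None reached the peaks of *timm-23*, *tomm-40* or *tomm-20*. The prefixes also took in *mppe-1*, which RefSeq describes as a metallophosphoesterase and which had no IDR peak.

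The remaining TOM receptor, *tomm-70*, had values of 334 in replicate 1 and 303 in replicate 2, with a summit 149 bp upstream of its start and inside an exon of the overlapping gene *sma-2*. Around TIM23, *scpl-4*, the TIM50 homolog that receives presequences, had 212 and 185. *tin-44*, the TIM44 homolog that anchors the motor, had 173 and 124. *timm-17B.2*, the paralog of *timm-17B.1*, had no candidate in any list. Among motor parts, *C34C12.8* (a GrpE homolog, the nucleotide exchange factor of HSP70) had 150 and 152. *F45G2.8* (TIM16) had no region, and *dnj-21* (TIM14) had only a candidate of 19.9 in replicate 2. *hsp-6*, mitochondrial HSP70 itself, had no promoter peak. Its IDR summit lay 2595 bp downstream of its start in an exon near the gene end, with 107 and 120 in the replicates. The gene start nearest to that summit is that of *adss-1*. The matched summit of replicate 1 lay 45 bp from it, just past the end of *hsp-6*. Inside the longer window of *hsp-6*, replicate 1 had only a candidate of 19.0.

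Small chaperones of the intermembrane space, which escort hydrophobic proteins, were mixed. *ddp-1* (TIM8) had 201 and 203 and *tin-9.1* (TIM9) had 83.2 and 71.0. *tin-10* and *tin-9.2* had no region. *tin-13* had candidates of 37.0 and 48.9 in its promoter window, at pooled rank 3118, below the IDR limit. Among outer membrane insertion genes, *mtx-1* had 138 and 108 at a summit that is nearer to *dnj-12*, 101 bp upstream of it, whereas *gop-3* (SAM50) and *mtx-2* had no IDR peak. *mppb-1*, the beta subunit of the peptidase that removes presequences, had 86.1 and 82.6, while its partner *mppa-1* had no region. *immp-1*, *immp-2* and *oxa-1* had no IDR peak. The chaperonin gene *hsp-60* and its partner *Y22D7AL.10* are divergent and share 1 peak, with 305 and 298. Its summit is 202 bp upstream of *Y22D7AL.10* and 611 bp from *hsp-60*, so it cannot be given to either gene alone.

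GAGNNTCGT was searched on both strands in all IDR summit windows. It occurred in 2 of the 5 peaks of the set, *tomm-40* and *timm-23*, the latter with 2 copies centred 33 and 26 bp from the summit on opposite sides. It also occurred in 3 of the 10 other import peaks, *tomm-70*, *scpl-4* and *tin-44*. Over all IDR peaks it occurred in 202 of 2586 windows (7.81%), and in 0.715% of 5172 windows centred 350 bp to either side. In the 10 strongest IDR peaks 6 had it, *timm-23* among them. The 259 strongest peaks had it at 55.2% and the next 259 at 10.8%. These counts by strength include the import peaks from which the word was picked. With the import peaks left out, 197 of 2571 summits held it (7.66%). Median signal values, with the import peaks included, were 875 for IDR peaks with the word and 138 for those without. Where its open letters are TG, as in *scpl-4*, it contains the reverse complement of ACACTC, 1 of the 6-letter words counted below.

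GCTNNCGCA lay 2 bp from the summit at *tomm-20* and 1 bp from it at *timm-17B.1*, counted from the centre of the word. *ddp-1* held it at 2 places, and *C34C12.8* and *tin-9.1* held 1 copy each, so 3 of the 10 other import peaks had it. Over all IDR peaks it was rarer, in 64 of 2586 windows (2.47%) and 0.522% of the flanking windows. It peaked at 8.11% in the second group of 259 by signal and was 2.70% in the strongest 259, with the import peaks included. With them left out, 59 of 2571 summits held it (2.29%). No IDR summit window held both words. Where its open letters are GA, as in *timm-17B.1*, it contains GACGCA, another of the 6-letter words.

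**Figure D4:**
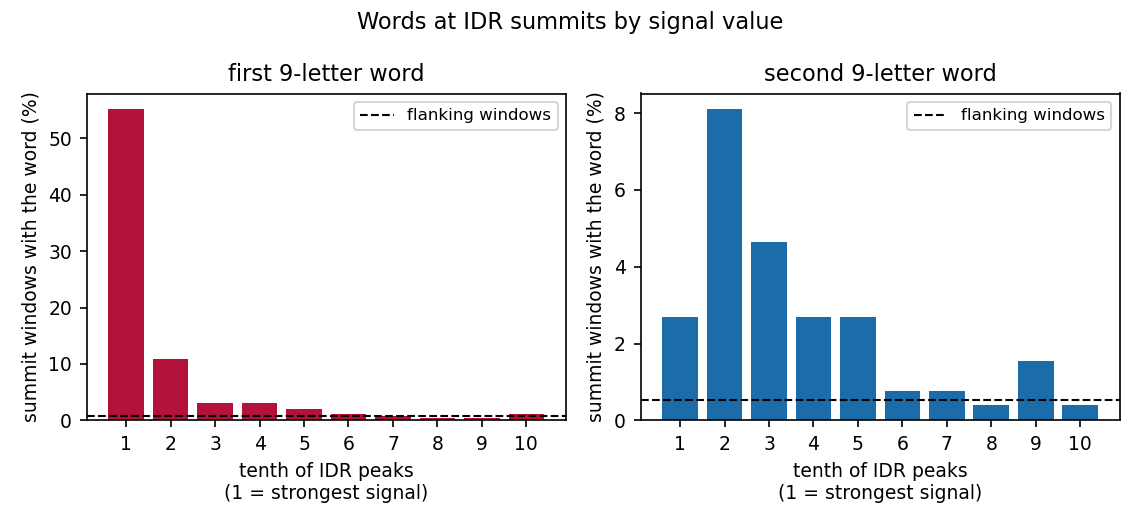
Share of IDR summit windows (101 bp, %) that hold GAGNNTCGT (left, first word) or GCTNNCGCA (right, second word), in 10 near-equal groups of the IDR peaks from strongest (1) to weakest (10), with the share in flanking windows as a dashed line. The first word falls from 55.2% to 10.8% between the strongest groups, and the second is highest, at 8.11%, in the second group. The import peaks are included, and the vertical axes differ.

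Among promoter windows of the 30 import genes, GAGNNTCGT was found in 5 of the 13 with an IDR promoter peak and GCTNNCGCA in another 5. Both words were picked from the summit windows of these same genes, so the counts follow from that choice and nothing is read from the 0 of 17 without a peak. Over all 19973 promoter windows, 947 (4.74%) held GAGNNTCGT, and 30.4% of those had an IDR promoter peak. GCTNNCGCA was in 526 (2.63%), of which 19.4% had one. A match describes the letters of a window, and whether T20F7.1 contacts them was not tested.

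Of 8 words of 6 letters taken from earlier results of these data, each searched on both strands, every one of the 5 peaks of the set held at least 1 within 50 bp of the summit, as did 6 of the 10 other import peaks and 40.6% of all IDR summits. Since the words came from these data, the counts are descriptions. *timm-23* and *tomm-20* held ACGCGC, found at 8.97% of IDR summits. *tomm-20* and *timm-17B.1* held GACGCA (9.16%). *tomm-40* held ACGCAG (9.78%) and ACACGC (7.35%). *timm-23* also held ACACTC (11.5%). *tomm-7* held CGTCTC (10.4%) and AGAGAC (12.0%), which overlap there and read as 1 stretch. AGCGCG (6.54%) was in none of the 5. ACGCAG and GACGCA share 5 letters and can overlap.

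The position of *tomm-7* behind *ufm-1* is shared by other import genes. In *C. elegans* many closely spaced genes on 1 strand are transcribed together as operons. Runs were defined here, after the data had been seen, as neighbouring protein-coding genes on 1 strand with gaps of at most 300 bp. Neighbours were taken in the order of gene starts. A gene is therefore missed if another gene start on its strand lies between it and the gene that ends close before it. The counts over the genome share this limit. They are not the annotated operons. Of the 30 import genes, 8 followed another gene in this way, and 7 of those had no promoter peak of their own. In 4 of the 7 the first gene of the run had one, where 17.6% of 2324 such genes in the genome did. *tomm-7* prompted this count and is 1 of the 4, and without it the count is 3 of 6, so nothing about import genes is read from it. The peak before *mtx-2* lay 124 bp upstream of *ZK686.2*, with a signal value of 811 in the pooled data. The peak before *gop-3* lay 131 bp upstream of *gop-1*, with 414. *immp-2* follows *Y55F3AM.9*, which had 112, and *tomm-7* follows *ufm-1*, with the 158 given above. *F45G2.8*, *tin-10* and *dnj-21* had no such peak. *ddp-1*, 285 bp behind *hlh-33*, was the 1 gene of the 8 with its own. *C34C12.8* also has its own promoter peak and starts 294 bp behind a gene on the same strand. It was missed by the order of starts and is not among the 8.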

How the data were processed

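Lists of 2 biological replicates of 1 group, of their pool and of the IDR peaks were used. Per the labels the assembly is ce11. Per the text deposited beside the lists, candidates were called on the alignment of each replicate, or of both pooled, with a control alignment. For the caller and aligner, names and versions were not given in the sources used here. The authors deposited a signal value and a −log10 q-value per region. Both are theirs and serve to rank and describe. Summits are region start plus deposited offset, written 1-based.

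Genes came from Ensembl release 115 and sequence and products from RefSeq, both WBcel235, and every region lies within its chromosome lengths. A summit belongs to a gene if it lies in the window named, and 1 summit can belong to several genes. A replicate value is that of the nearest candidate summit within 100 bp.

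The members and lists were chosen with earlier results of these data known, so values are descriptions, set beside the share over all protein-coding genes, with no test. Of 44 listed names 21 are absent from the annotation, and prefixes added 1. Genes named are the set, list genes, genes sharing their summits and the 3 peaks nearest to *timm-23*. *ZK686.2*, *gop-1*, *Y55F3AM.9*, *hlh-33* and *adss-1* and both 9-letter words were chosen after values were seen. Python 3.11.15, numpy 2.4.6, pandas 2.3.3 and matplotlib 3.10.9 were used, and counting was tested on simulated data. Alternatives were other windows, starts, thresholds, single replicates, matching and word distances.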

Additional observations from a re-analysis of the deposited data

How the results depend on the processing

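Of 76 recomputed values, 71 stayed within 1.5 times of the count, or within the replicate spread of the value, and 5 did not. With a narrower promoter window, 250 bp upstream to 50 bp downstream, 2 of the 6 genes kept a promoter summit (*timm-23* and *timm-17B.1*) in place of 4, since those of *tomm-20* and *tomm-40* lie 288 and 285 bp upstream. Within 25 bp of the summit, a distance chosen after seeing the data, GAGNNTCGT was in 1 peak of the set in place of 2. Within 100 bp it was in 3, which counts as within 1.5 times, and the added peak was that of *tomm-7*. Within 25 bp, ACGCGC was in 1 peak in place of 2, as was GACGCA, and ACACTC was in 0 in place of 1. With the strongest regions of a single replicate, without replicate 1 or without replicate 2, the set kept counts of 5 and 4. With the nearest start alone, *tomm-7* lost its peak to *coq-5*, and the other import genes with a summit in the longer window fell from 11 to 8. With the narrower promoter window, other import genes with a promoter summit fell from 9 to 6. Both falls count as within 1.5 times. No paired analysis was possible because there is 1 group. Read depth is unknown, and a site weaker than the lists' lower limits cannot be seen. No control was analysed here, so how much of any peak an untagged strain would show was not tested.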
